A study of Mus musculus with 6 samples.

Results

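The genes described here serve the entry of new proteins into the endoplasmic reticulum (ER), their N-glycosylation there, and their export in COPII-coated vesicles. They are a named list of 40 genes that share these functions, out of 54446 gene identifiers in the count table. All 40 were among the 14956 genes tested, which had 10 or more counts in 2 or more libraries. By role they comprise 5 translocon genes, 4 of the translocon-associated protein (TRAP) complex, 5 of signal peptidase, 1 of the receptor for the signal recognition particle, 7 of the oligosaccharyltransferase, 11 of the COPII coat and its scaffold, 1 SNARE, 3 cargo receptors and 3 KDEL receptors.

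Gene expression was measured by poly(A) RNA-seq in TRAMP-C2 cells, an established mouse line derived from a prostate tumour of a C57BL/6 male TRAMP animal, in which a probasin promoter drives SV40 T antigen. The cells of all groups grew in the same medium, which held insulin and dehydroisoandrosterone, and were left without drug (control) or given 2 µM oxaliplatin (Oxali) or 2 µM cisplatin (Cispl) for 24 h. Each group had 2 libraries, with 21345312 to 24041767 counts in each. The labels do not say whether the libraries came from separate cultures, so that p-values measure the spread between these libraries, which may be technical. Both comparisons with control use the same 2 control libraries.

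Proteins bound for the cell surface, the lysosome or the medium are recognised by the signal recognition particle as they leave the ribosome and are threaded through the Sec61 channel. Signal peptidase cuts off the leader, and the oligosaccharyltransferase transfers a preassembled sugar tree to asparagine. Folded cargo is then gathered by receptors and by Sec24 into vesicles coated with Sec23, Sec24, Sec13 and Sec31, while the KDEL receptors fetch escaped ER residents back from the Golgi. In secretory cells these genes are coupled to the unfolded protein response, whose factors ATF6 and XBP1 bind short promoter elements.

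Oxali was followed by lower mRNA of 24 of the 40 genes and higher mRNA of none, against 9.50% of all tested genes lower and 10.7% higher (DESeq2, adjusted p below 0.05). After Cispl 11 were lower and 2 higher, against 12.4% and 15.7% of all tested genes. With libraries scaled by their total counts instead of median-of-ratios size factors, 18 were lower and 1 higher after Cispl (DESeq2). Under that scaling 2376 of all 14956 tested genes were lower and 1824 higher, against 1848 and 2355 with size factors. With trends in transcript length and GC content removed, 11 of the 40 were lower and 5 higher (DESeq2). Of all tested genes 1589 were then lower and 2754 higher. In Oxali compared directly with Cispl, 21 were lower and 1 was higher, against 11.3% and 8.62% of all tested genes. Retrieval receptors, cargo receptors and the COPII coat held most of the genes that fell, whereas Rpn1, Rpn2, Stt3a and Stt3b of the oligosaccharyltransferase passed the threshold in no comparison. The falls were moderate. Kdelr3 fell by 47.4% after Oxali, the largest fall, and none of the 40 reached a log2 fold change of 1. The 40 genes are abundant, with a median of 3562 normalised counts (counts divided by the library's size factor) against 481 over all tested genes, and small differences are easier to detect at that depth than in a typical gene.

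The median log2 fold change of the 40 genes was -0.20 after Oxali, -0.03 after Cispl and -0.17 for Oxali against Cispl, while the medians over all tested genes lay at 0.00 in all 3 comparisons. Without regard to a threshold, 35 of the 40 values were below 0 after Oxali and 25 after Cispl. The libraries of the groups did not overlap, with the drug lower, for 31 genes after Oxali and 18 after Cispl. They did not overlap with the drug higher for 3 and 11 genes. With 2 libraries a group, libraries often separate without any difference between groups. The share of all tested genes without overlap was not computed, so these counts have no background to be read against. In bulk RNA fewer cells of a type and less RNA per cell cannot be told apart.

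**Figure D1:**
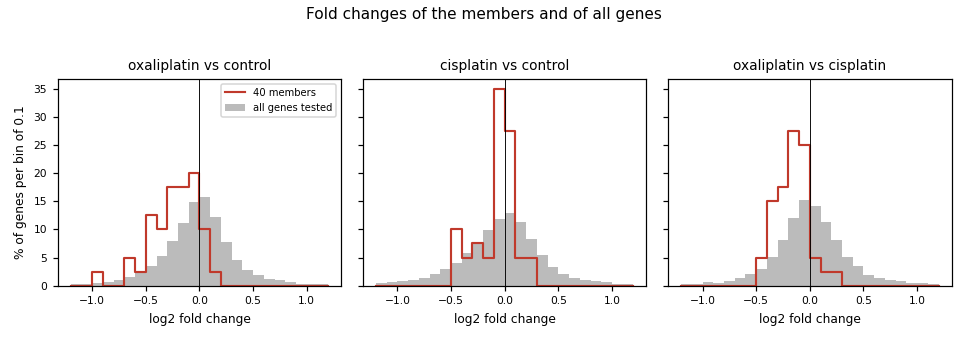
Log2 fold changes of the 40 genes (red line) and of all 14956 tested genes (grey bars), as the percentage of genes per bin of 0.1, for each comparison; genes beyond ±1.2 are not drawn. Most of the 40 genes lie left of 0 after Oxali and for Oxali against Cispl (35 and 36 of 40, medians -0.20 and -0.17), and the median after Cispl is -0.03.

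The KDEL receptors bind the C-terminal retrieval signal of ER chaperones in the Golgi and return them in COPI vesicles. All 3 fell after Oxali and 2 of 3 after Cispl. Their median log2 fold changes, -0.63 after Oxali and -0.29 after Cispl, were the largest of the roles. Single genes of other roles fell more than some of them. After Oxali Sec24d, Ostc and Sec23a fell more than Kdelr2, and after Cispl Ostc, Sec23b, Sec24d, Sec16a and Lman1 fell more than Kdelr1. Kdelr3 (chromosome 15, 79516411 to 79527739, plus strand, GRCm38) had normalised counts of 2274 and 2034 in control, 1124 and 1142 in Oxali and 1581 and 1540.0 in Cispl libraries. All control libraries were above all Cispl libraries, and these were above all Oxali libraries. Its log2 fold change was -0.93 ± 0.08 (SE, adjusted p = 2.64e-27) after Oxali and -0.46 ± 0.08 (SE, adjusted p = 1.39e-07) after Cispl (DESeq2), and Oxali against Cispl gave -0.46 ± 0.08 (SE, adjusted p = 5.92e-07).

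Kdelr1, the widely expressed receptor of the family, gave the same order of groups. Its normalised counts were 2169.8 and 2089 in control, 1354 and 1403 in Oxali and 1767 and 1716 in Cispl libraries, without overlap between groups. It changed by -0.63 ± 0.07 (SE, adjusted p = 5.37e-17) after Oxali and by -0.29 ± 0.07 (SE, adjusted p = 0.000238) after Cispl on the log2 scale (DESeq2). The direct difference between the drugs was -0.34 ± 0.07 (SE, adjusted p = 3.07e-05).

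Kdelr2, the third receptor, differed between the drugs. It had normalised counts of 4742 and 4651 in control, 3399.7 and 3441 in Oxali and 4803 and 4645 in Cispl libraries. The Oxali libraries were below all others, and control and Cispl libraries overlapped. The log2 fold change was -0.46 ± 0.05 (SE, adjusted p = 9.83e-19) after Oxali (DESeq2). After Cispl it was 0.01 ± 0.05 (SE, adjusted p = 0.923), with a 95% interval from -0.09 to 0.10, and Oxali against Cispl gave -0.47 ± 0.05 (SE, adjusted p = 1.94e-19). Per length of transcript, Kdelr2 was the most abundant of the 3 in control cells, with an approximate 259 TPM (counts per kilobase of transcript, scaled to a fixed library total) against 154 for Kdelr3 and 134 for Kdelr1. After Oxali these levels were 186, 79.9 and 85.8 TPM, and after Cispl 248, 106 and 105 TPM.

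**Figure D2:**
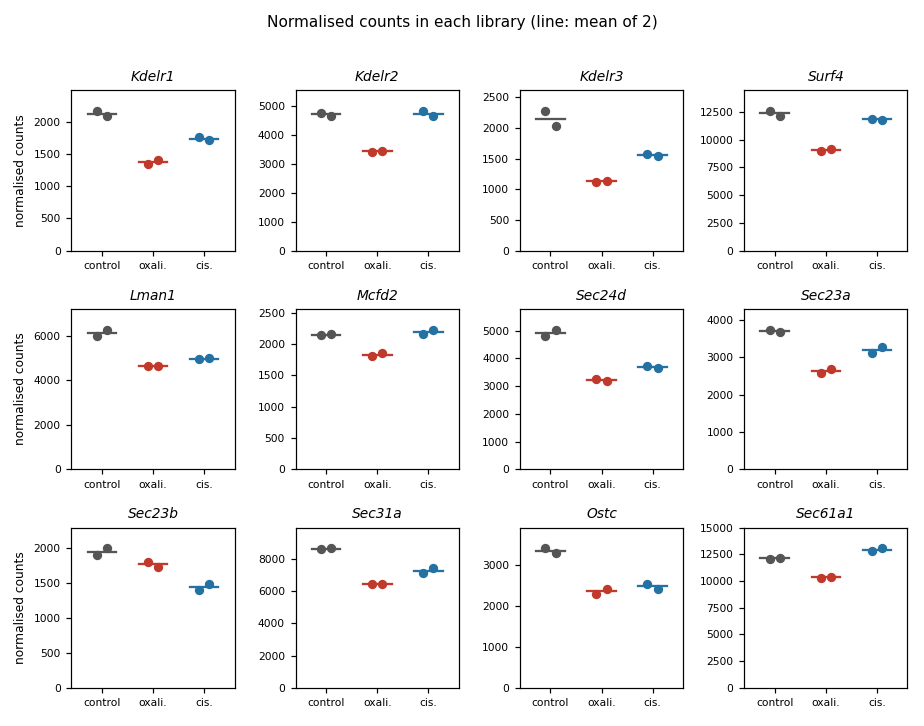
Normalised counts (linear axis from 0) of 12 of the genes in each of the 6 libraries, as points, with the mean of each group as a line. Oxali libraries are lowest for all genes drawn but Sec23b, where Cispl is lowest at 1406 and 1497, and Ostc, where the libraries of the drugs overlap; Kdelr2, Surf4, Mcfd2 and Sec61a1 are near or above control after Cispl.

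Promoters were searched because the ER stress factors bind known elements and because members of the list moved together. Promoter windows of RefSeq (250 bases before to 50 from each start, GRCm38.p6) were at hand for 33 of the 40 genes, in 36 windows. No window was matched for Sec61a1, Ssr2, Spcs3, Sec11c, Ostc, Lman1 and Kdelr2. The ER stress response element, searched as CCAAT and CCACG 9 bases apart on both strands, was found in none of the 36 windows and in 0.119% of 32851 windows of all genes. The element TGACGTGG, searched on both strands, was found in 3 of the 36 windows and in 0.676% of all windows. Its reverse complement holds the letters CCACG, so that the motifs share bases. The 3 windows belong to Kdelr3, Sec24d and Sec23a, which all fell after each drug. They are shown from 100 bases before the start to 20 bases from it, in the direction of transcription, with the motif in capitals.
Kdelr3, chr15:79516308-79516427, plus strand, motif on the other strand at positions -30 to -23: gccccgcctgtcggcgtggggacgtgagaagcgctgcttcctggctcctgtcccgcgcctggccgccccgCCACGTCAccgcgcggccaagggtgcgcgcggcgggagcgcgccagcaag
Sec24d, chr3:123267396-123267515, plus strand, motif at positions -26 to -19: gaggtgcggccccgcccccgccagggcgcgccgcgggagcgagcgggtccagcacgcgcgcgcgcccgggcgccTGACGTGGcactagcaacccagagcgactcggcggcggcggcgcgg
Sec23a, chr12:59011998-59012117, minus strand, motif at positions 7 to 14 after the start: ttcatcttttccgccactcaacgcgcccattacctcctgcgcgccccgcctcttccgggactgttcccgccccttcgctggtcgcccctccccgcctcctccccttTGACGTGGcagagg
A match of letters does not show that a factor binds there, and the many members without a match include Kdelr1, Surf4 and Sec31a, which fell as well.

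Of the cargo receptors, all 3 fell after Oxali and 1 of 3 after Cispl. Surf4, which loads soluble secreted proteins into COPII vesicles, had normalised counts of 12549 and 12148 in control, 8931 and 9131 in Oxali and 11853 and 11773 in Cispl libraries. The Oxali libraries were far below the others, and the Cispl libraries lay just below both control libraries. The log2 fold change was -0.45 ± 0.04 (SE, adjusted p = 2.87e-31) after Oxali and -0.06 ± 0.04 (SE, adjusted p = 0.188) after Cispl, which was not called (95% interval -0.14 to 0.01). Oxali against Cispl gave -0.39 ± 0.04 (SE, adjusted p = 4.6e-23) (DESeq2).

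Lman1 and Mcfd2 encode the lectin ERGIC-53 and its calcium-binding partner, which carry coagulation factors and other glycoproteins as one complex. Lman1 counts were 6019.7 and 6283 in control, 4648 and 4669 in Oxali and 4965 and 5013 in Cispl libraries, with both drugs below control. It changed by -0.40 ± 0.05 (SE, adjusted p = 2.06e-16) after Oxali and by -0.30 ± 0.05 (SE, adjusted p = 9.92e-10) after Cispl on the log2 scale (DESeq2). The difference between the drugs was -0.10 ± 0.05 (SE, adjusted p = 0.105) with a 95% interval from -0.19 to -0.01, and was not called. Mcfd2 counts were 2139 and 2152 in control, 1803 and 1847 in Oxali and 2164 and 2225 in Cispl libraries. The Oxali libraries were below the other 4, and the Cispl libraries lay slightly above control. Mcfd2 changed by -0.23 ± 0.06 (SE, adjusted p = 0.00204) after Oxali and -0.27 ± 0.06 (SE, adjusted p = 0.000337) against Cispl (DESeq2), while Cispl against control was 0.03 ± 0.06 (SE, adjusted p = 0.758). Sec22b, the SNARE of vesicles between ER and Golgi, had counts of 2526 and 2457 in control, 1858 and 1934 in Oxali and 2237 and 2319 in Cispl libraries. The groups did not overlap, with control highest and Oxali lowest. Its log2 fold change was -0.39 ± 0.06 (SE, adjusted p = 2.1e-08) after Oxali and -0.27 ± 0.06 (SE, adjusted p = 0.0004) against Cispl (DESeq2).

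The COPII coat held 8 of 11 genes that fell after Oxali and 6 of 11 that fell after Cispl, with a median log2 fold change of -0.28 and -0.18. Sec24 proteins are the cargo-binding adaptors of the inner coat, and the genes for the 4 isoforms differed. Sec24d normalised counts were 4814 and 5034 in control, 3269 and 3185 in Oxali and 3719 and 3642 in Cispl libraries, with control above Cispl and Cispl above Oxali. Sec24d changed by -0.61 ± 0.05 (SE, adjusted p = 2.56e-29) after Oxali and by -0.42 ± 0.05 (SE, adjusted p = 2.17e-14) after Cispl on the log2 scale (DESeq2). Sec24c had counts of 4958 and 4922 in control, 3886 and 3947 in Oxali and 4233 and 4512 in Cispl libraries and also kept the groups apart. Its log2 fold changes were -0.34 ± 0.05 (SE, adjusted p = 2.87e-09) and -0.18 ± 0.05 (SE, adjusted p = 0.0033) (DESeq2). Sec24a, the least abundant isoform, had counts of 947 and 1109 in control, 805 and 757 in Oxali and 949 and 1025 in Cispl libraries. The Oxali libraries were lowest, at -0.40 ± 0.11 (SE, adjusted p = 0.00241) against control (DESeq2), and control and Cispl overlapped. Sec24b, at 1998 to 2169 normalised counts in all libraries, was called in no comparison, and its groups overlapped in all 3. Of the summed TPM of the 4 isoforms, Sec24d made up 43.0% in control, 37.2% after Oxali and 38.0% after Cispl, and Sec24b 14.0%, 18.0% and 16.5%.

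The Sec23 proteins, which stimulate GTP hydrolysis by the GTPase SAR1 on the ER membrane, are encoded by a pair of genes that went in opposite order between the drugs. Sec23a normalised counts were 3738 and 3684 in control, 2584 and 2689 in Oxali and 3123 and 3268 in Cispl libraries, lowest after Oxali. Sec23b normalised counts were 1907 and 2000.0 in control, 1800.1 and 1741 in Oxali and 1406 and 1497 in Cispl libraries, lowest after Cispl. In neither gene did the libraries of the groups overlap. Sec23a changed by -0.49 ± 0.06 (SE, adjusted p = 2.55e-16) after Oxali and by -0.22 ± 0.06 (SE, adjusted p = 0.000801) after Cispl, and Sec23b by -0.14 ± 0.07 (SE, adjusted p = 0.15), not called, and -0.43 ± 0.07 (SE, adjusted p = 1.15e-07) (DESeq2). In the direct comparison Oxali was lower than Cispl for Sec23a, at -0.28 ± 0.06 (SE, adjusted p = 1.71e-05), and higher for Sec23b, at 0.29 ± 0.07 (SE, adjusted p = 0.000978) (DESeq2). The ratio of Sec23a to Sec23b counts, which does not depend on scaling between libraries, was 1.96 and 1.84 in control, 1.44 and 1.54 after Oxali, and 2.22 and 2.18 after Cispl.

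Sec31a and Sec13 form the outer cage of the coat. Sec31a had normalised counts of 8623 and 8654 in control, 6461 and 6427 in Oxali and 7127 and 7425 in Cispl libraries, with no overlap between groups. It changed by -0.42 ± 0.04 (SE, adjusted p = 1.28e-22) after Oxali, -0.25 ± 0.04 (SE, adjusted p = 2.7e-08) after Cispl and -0.18 ± 0.04 (SE, adjusted p = 0.00025) between the drugs (DESeq2). Sec13, whose protein also serves in the nuclear pore, had counts of 5215 and 4868 in control, 4464 and 4628 in Oxali and 5139.8 and 4893 in Cispl libraries. It was lower after Oxali by 0.15 (adjusted p = 0.0311, DESeq2), and control and Cispl libraries overlapped. Sec16a, the scaffold of ER exit sites, had counts of 2919 and 3197 in control, 2581 and 2439.7 in Oxali and 2287 and 2359.6 in Cispl libraries. Both drugs were below control, at -0.28 ± 0.07 (SE, adjusted p = 0.000329) for Oxali and -0.40 ± 0.07 (SE, adjusted p = 1.45e-07) for Cispl (DESeq2), the latter at -0.23 once a trend with transcript length and GC content is removed. The difference between the drugs was 0.11 ± 0.07 (SE, adjusted p = 0.249) with a 95% interval from -0.02 to 0.25. Of the genes of the SAR1 GTPase, which starts coat assembly, Sar1a had counts of 6533 and 6362 in control, 5244 and 5450.5 in Oxali and 6210.3 and 6136 in Cispl libraries. It was lowest after Oxali, at -0.27 ± 0.04 (SE, adjusted p = 3.81e-08) against control and -0.21 ± 0.04 (SE, adjusted p = 4.89e-05) against Cispl (DESeq2). Sar1b, at 835 to 979 normalised counts, was called in no comparison.

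**Figure D3:**
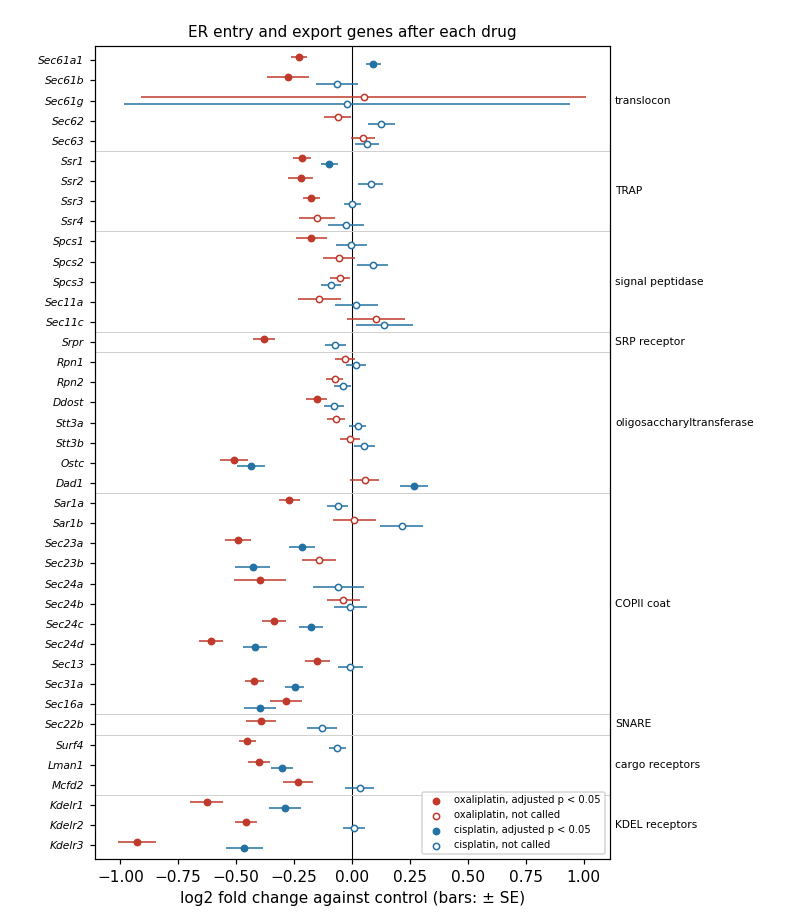
Log2 fold change against control of the 40 genes, ordered by role, after Oxali (red) and Cispl (blue); bars are ± SE, filled points passed an adjusted p below 0.05 and open points did not. The KDEL receptors, cargo receptors and most COPII genes lie left of 0 after Oxali, most oligosaccharyltransferase and signal peptidase genes lie near 0, and Sec61g has an SE of 0.96.

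At the entry side, Srpr, the receptor subunit that docks the signal recognition particle at the ER, had normalised counts of 5312 and 5494 in control, 4169 and 4139 in Oxali and 5110.4 and 5174 in Cispl libraries. The Oxali libraries were far below the other 4. The log2 fold change was -0.38 ± 0.05 (SE, adjusted p = 1.58e-14) after Oxali and -0.31 ± 0.05 (SE, adjusted p = 1.09e-09) against Cispl (DESeq2). Cispl against control, at -0.07 ± 0.05 (SE, adjusted p = 0.243), was not called, with a 95% interval from -0.16 to 0.02.

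Among the translocon genes 2 of 5 fell after Oxali and 1 of 5 rose after Cispl. Sec61a1, the pore subunit of the channel, had normalised counts of 12081 and 12144 in control, 10311 and 10387 in Oxali and 12782 and 13047 in Cispl libraries. Its groups stood in the order Oxali, control, Cispl without overlap, with log2 fold changes of -0.23 ± 0.03 (SE, adjusted p = 1.36e-09) after Oxali and 0.09 ± 0.03 (SE, adjusted p = 0.0249) after Cispl (DESeq2). The direct difference was -0.32 ± 0.03 (SE, adjusted p = 1.29e-18). The call after Cispl was lost in edgeR, under total-count scaling (0.04), with a minimum of 10 counts in every library, with a replicate block, with only the 4 libraries compared, and when any 1 of the 6 libraries was left out. Sec61b, a small subunit, had counts of 2380.5 and 1973 in control, 1788 and 1801 in Oxali and 2098 and 2063 in Cispl libraries, and 1 control library stood well above the other. It was called after Oxali at -0.28 ± 0.09 (SE, adjusted p = 0.0116) (DESeq2). Without the higher control library it was at -0.13 (adjusted p = 0.361, DESeq2). It was called in neither of the other comparisons. Sec62, which with Sec63 admits proteins after their synthesis, had counts of 2848 and 2811 in control, 2643 and 2778 in Oxali and 3138 and 3035 in Cispl libraries and was called between the drugs alone, at -0.19 ± 0.06 (SE, adjusted p = 0.00792) (DESeq2). Sec63 stayed between 3948 and 4284 normalised counts and was called in no comparison.

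TRAP sits beside the channel and helps difficult leaders through, and 3 of its 4 genes fell after Oxali. Ssr1 counts were 9335 and 9474 in control, 7968 and 8219.7 in Oxali and 8818 and 8764 in Cispl libraries, with control highest and Oxali lowest. Ssr2 counts were 4940.5 and 4626 in control, 4057 and 4151 in Oxali and 5166 and 4942 in Cispl libraries, and Ssr3 counts were 11814 and 12234 in control, 10584 and 10697 in Oxali and 12092 and 11969.8 in Cispl libraries. In both genes the Oxali libraries were below the other 4. The log2 fold changes after Oxali were -0.22, -0.22 and -0.18 for Ssr1, Ssr2 and Ssr3 (adjusted p = 3.62e-07, 0.000441 and 1.87e-05, DESeq2). After Cispl Ssr1 was called at -0.10 ± 0.04 (SE, adjusted p = 0.0378) (DESeq2), and this value lies above 0 once a trend with transcript length and GC content is removed. All 3 were lower after Oxali than after Cispl, at -0.12, -0.30 and -0.18 (adjusted p = 0.0112, 6.15e-07 and 1.82e-05, DESeq2), and Ssr1 was at -0.27 with that trend removed. Ssr4 was called in no comparison, at 1906 to 2241 normalised counts.

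Signal peptidase had 1 of 5 genes lower after Oxali and 0 of 5 called after Cispl (DESeq2; 1 of 5 at an unadjusted p below 0.05 in each). Spcs1, an accessory subunit, had counts of 2741 and 2608 in control, 2319 and 2416 in Oxali and 2781 and 2557 in Cispl libraries. The Oxali libraries were below the other 4, and control and Cispl overlapped. It was lower after Oxali by 0.18 against control (adjusted p = 0.0411) and by 0.17 against Cispl (adjusted p = 0.0454, DESeq2), both close to the threshold. The catalytic subunits Sec11a and Sec11c and the accessory Spcs2 and Spcs3 were called in no comparison. For these 4 the estimates after Oxali ran from -0.14 to 0.10, and the outermost bounds of their 95% intervals were -0.32 and 0.35.

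The oligosaccharyltransferase had 4 of its 7 genes called in no comparison and 3 called in at least 1. Rpn1, Rpn2, Stt3a and Stt3b, of which Stt3a and Stt3b are the catalytic subunits for glycosylation during and after translocation, were called in no comparison and are among the more abundant genes of the list. With Dad1 they had log2 fold changes between -0.07 and 0.05 after Oxali, with outermost 95% bounds of -0.15 and 0.18. The ratio of Stt3a to Stt3b counts was 2.08 and 2.11 in control, 1.99 and 2.03 after Oxali, and 2.07 and 2.04 after Cispl.

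Ostc, a subunit that tethers the Stt3a complex to the translocon, had the largest fall of the complex. Its normalised counts were 3409.9 and 3308 in control, 2294 and 2429 in Oxali and 2538 and 2428 in Cispl libraries. Both drugs were well below control and overlapped each other. Ostc changed by -0.51 ± 0.06 (SE, adjusted p = 1.21e-14) after Oxali and by -0.44 ± 0.06 (SE, adjusted p = 4.54e-11) after Cispl on the log2 scale (DESeq2). The difference between the drugs was -0.07 ± 0.06 (SE, adjusted p = 0.442) with a 95% interval from -0.20 to 0.05. Dad1, a small subunit named for cell death when it is lost, had counts of 2149 and 2124 in control, 2186 and 2252 in Oxali and 2622 and 2521 in Cispl libraries. The Cispl libraries were above the other 4, at 0.27 ± 0.06 (SE, adjusted p = 0.000135) against control (DESeq2), while Oxali was at 0.05 ± 0.06 (SE, adjusted p = 0.597) and not called. Ddost had counts of 6656 and 6432 in control, 5868 and 5901 in Oxali and 6289 and 6115 in Cispl libraries and was called after Oxali alone, at -0.15 ± 0.04 (SE, adjusted p = 0.00321) (DESeq2).

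Oxaliplatin and cisplatin are both platinum compounds, the former with a diaminocyclohexane carrier and an oxalate leaving group, the latter with ammine and chloride ligands. At the equal dose and time, 22 of the 40 genes were called different between them (DESeq2 with independent filtering), and 20 with p-values adjusted over every tested gene. Kdelr2, Kdelr3 and Surf4 had the largest differences, at -0.47, -0.46 and -0.39, all lower after Oxali. Sec23b was the 1 gene higher after Oxali. For 18 genes no difference was called, which does not show that the drugs act alike on them. Ostc, Lman1 and Sec16a, which fell after each drug, are among these 18.

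**Figure D4:**
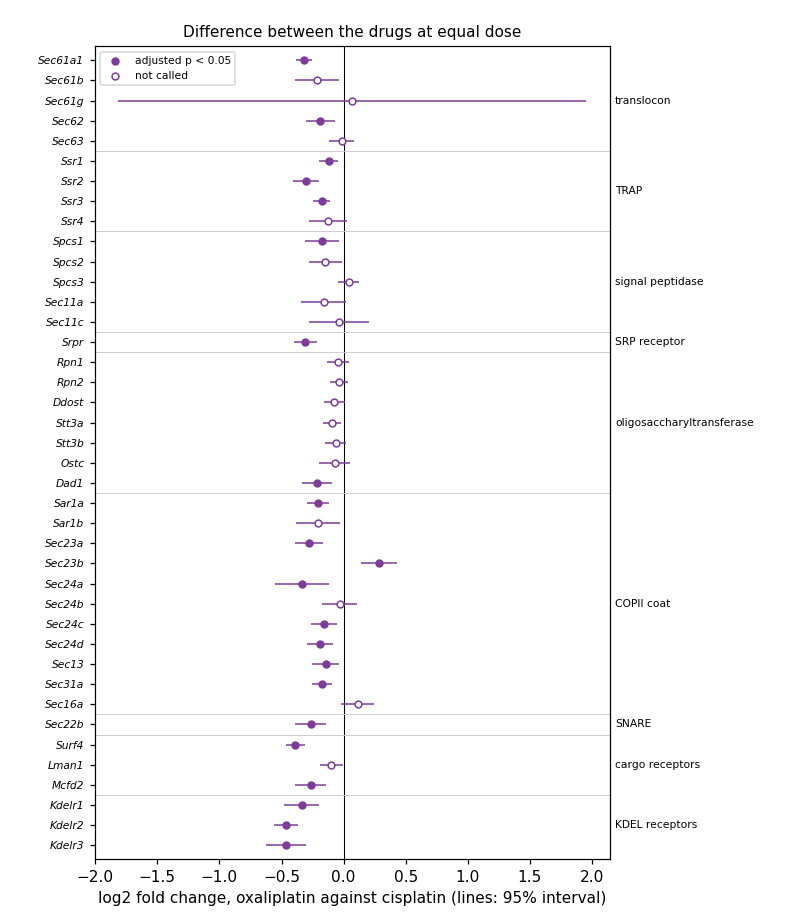
Log2 fold change of Oxali against Cispl for the 40 genes, ordered by role, with 95% intervals as lines; filled points passed an adjusted p below 0.05. Of the filled points 21 lie left of 0 and 1, Sec23b at 0.29, lies right of 0.

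Other genes of the pathway were counted from lists of general knowledge. Of all tested genes 9.50% were lower and 10.7% higher after Oxali, and 12.4% lower and 15.7% higher after Cispl. Of 28 further tested genes of COPII assembly and ER to Golgi carriers, 14 were lower and 4 higher after Oxali, and 7 lower and 7 higher after Cispl. These are 50% and 14.3% after Oxali, and 25% and 25% after Cispl. Tmed3, a p24 cargo adaptor, had counts of 1626 and 1443 in control, 979 and 1015 in Oxali and 1268 and 1243 in Cispl libraries and changed by -0.62 ± 0.09 (SE, adjusted p = 1.84e-10) after Oxali (DESeq2). Tmed5, of the same p24 family, had counts of 1639.6 and 1618 in control, 2101 and 2066 in Oxali and 2631 and 2736 in Cispl libraries and was higher after both drugs, at 0.36 ± 0.06 (SE, adjusted p = 8.01e-07) and 0.72 ± 0.06 (SE, adjusted p = 4.35e-27) (DESeq2). Of 21 genes of the COPI coat and retrieval, 14 were lower and 0 higher after Oxali (DESeq2, 16 of 21 with an unadjusted p below 0.05), and 12 lower and 3 higher after Cispl. These are 66.7% and 0% after Oxali, and 57.1% and 14.3% after Cispl. Arf4, a GTPase of COPI recruitment, had counts of 9038 and 8866 in control, 7360.1 and 7461 in Oxali and 10160.0 and 10226 in Cispl libraries, lowest after Oxali and highest after Cispl. The log2 fold changes of Arf4 were -0.27 ± 0.04 (SE, adjusted p = 1.47e-11) and 0.19 ± 0.04 (SE, adjusted p = 4.81e-06) (DESeq2). Copb2 had the smallest adjusted p of this list after Oxali, at -0.29 ± 0.04 (SE, adjusted p = 2.52e-12, DESeq2). Copb2 was also lower after Cispl, at -0.14 ± 0.04 (SE, adjusted p = 0.00121, DESeq2).

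Of 27 ER chaperone and unfolded protein response genes, 19 were lower and 1 higher after Oxali, and 11 lower and 4 higher after Cispl. These are 70.4% and 3.70% after Oxali, and 40.7% and 14.8% after Cispl. Ddit3 was the 1 higher gene after Oxali, at 0.62 ± 0.09 (SE, adjusted p = 3.25e-11, DESeq2). After Cispl Ddit3 was at 0.79 ± 0.09 (SE, adjusted p = 1.39e-18, DESeq2). Atf4, Dnajb9 and Herpud1 were the others higher after Cispl, and Dnajb9 and Herpud1 were lower after Oxali. Hspa5, the chaperone BiP that carries a KDEL signal, had counts of 34507 and 34606 in control, 22683 and 23888 in Oxali and 29883 and 29926 in Cispl libraries. It changed by -0.57 ± 0.03 (SE, adjusted p = 1.38e-58) after Oxali, -0.21 ± 0.03 (SE, adjusted p = 2.02e-08) after Cispl and -0.36 ± 0.03 (SE, adjusted p = 1.31e-23) between the drugs (DESeq2). Xbp1, the response's transcription factor, had counts of 1649.9 and 1594 in control, 861 and 921 in Oxali and 898 and 881 in Cispl libraries. It changed by -0.87 ± 0.09 (SE, adjusted p = 7.84e-22) after Oxali and -0.87 ± 0.09 (SE, adjusted p = 5.9e-22) after Cispl, with a direct difference of 0.00 ± 0.09 (SE, adjusted p = 0.994) (DESeq2). Whether the deposited Xbp1 counts held the spliced or the unspliced form was not analysed here.

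Of 36 genes of N-glycan synthesis and trimming, 7 were lower and 1 higher after Oxali, and 11 lower and 4 higher after Cispl. These are 19.4% and 2.78% after Oxali, where all tested genes gave 9.50% and 10.7%. After Cispl they are 30.6% and 11.1%, against 12.4% and 15.7% of all tested genes. Gmppb, which makes GDP-mannose for the sugar tree, had counts of 823 and 731 in control, 466 and 418 in Oxali and 537 and 533 in Cispl libraries and changed by -0.81 ± 0.12 (SE, adjusted p = 2.42e-09) and -0.54 ± 0.12 (SE, adjusted p = 0.000115) (DESeq2). Mogs, the glucosidase that trims the transferred tree first, had counts of 1737 and 1748 in control, 1516 and 1577 in Oxali and 1219 and 1287 in Cispl libraries and was called after Cispl, at -0.48 ± 0.08 (SE, adjusted p = 6.22e-09) (DESeq2). Of 27 further genes of targeting and membrane insertion, 3 were lower and 4 higher after Oxali, and 2 lower and 8 higher after Cispl. These are 11.1% and 14.8% after Oxali, near the 9.50% and 10.7% of all tested genes, and 7.41% and 29.6% after Cispl. Tram1 had the smallest adjusted p of this list after Oxali and was lower, at -0.36 ± 0.06 (SE, adjusted p = 2.21e-09, DESeq2). Tram1 was also lower after Cispl, at -0.16 ± 0.06 (SE, adjusted p = 0.0204, DESeq2). Emc6, of the membrane insertase EMC, had counts of 832 and 798 in control, 1105 and 1187 in Oxali and 1058 and 1049.8 in Cispl libraries and rose by 0.49 ± 0.09 (SE, adjusted p = 1.5e-06) and 0.37 ± 0.09 (SE, adjusted p = 0.00042) (DESeq2).

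The prostate epithelial label was checked against markers. Of 11 epithelial markers 7 were tested, 2 (Krt5 and Pbsn) were at 0 in all libraries, and Epcam had at most 1.97 normalised counts, while Cdh1 had 369 and 409.9 in control, 370.4 and 421 in Oxali and 551 and 573 in Cispl libraries. All 7 fibroblast markers were tested, and Col1a1 and Col1a2, whose collagens are large loads for the ER, were very high. Of the 7, Col1a1, Col1a2 and Col3a1 carried nearly all of the sum and fell after each drug, whereas Pdgfra rose after Oxali (0.46 ± 0.08 (SE, adjusted p = 3.52e-07)) and Thy1 after Cispl (0.42 ± 0.09 (SE, adjusted p = 3.51e-05); DESeq2). The summed fibroblast markers were 273197 to 289326 normalised counts in control, 226649 to 227164 after Oxali and 212981 to 215453 after Cispl. The epithelial markers summed to 4233 to 4380.1 in control, 4093 to 4119 after Oxali and 4458 to 4570.3 after Cispl. Of 7 immune markers 2 were tested and 2 were at 0, with sums of 300.5 to 314 in control, 413 in both Oxali libraries and 340.2 to 358 after Cispl. Cd14 carried most of these sums, at 304 and 283 in control, 401 and 404 in Oxali and 320 and 338 in Cispl libraries. Csf1r, the other immune marker tested, had at most 18.6 normalised counts. Of 5 endothelial markers 1 was tested, with sums of 25.6 to 29.1 in control, 53.2 to 64.1 after Oxali and 55.3 to 73.5 after Cispl. Kdr, the 1 tested, carried most of these, at 24.9 and 20.7 in control, 55.7 and 49.1 in Oxali and 62.7 and 50.1 in Cispl libraries. The part of these markers in the results on ER genes was not tested.

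Each library was left out in turn, which also removes power from a fit with 2 libraries a group. Against control after Oxali, 16 of the 24 calls were kept in all such fits. Those of Ssr2, Spcs1, Ddost, Sec24a, Sec16a and Mcfd2 were lost in at least 1 with log2 fold changes within 1.5 times of the full value, such as -0.25 to -0.22 for Mcfd2 and -0.21 to -0.14 for Spcs1, whose call was lost in all 6. Without control replicate 1, Sec61b moved from -0.28 to -0.13 (adjusted p = 0.361) and Sec13 from -0.15 to -0.10 (adjusted p = 0.38), and both calls were lost (DESeq2).

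After Cispl 7 of 13 calls were kept in all such fits, and the count fell to 8, all lower, without Cispl replicate 1. The calls of Sec61a1 and Ssr1 were lost in all 6 fits, with log2 fold changes of 0.08 to 0.11 and -0.11 to -0.09. Those of Dad1, Sec23a, Sec24c and Kdelr1 were lost in at least 1 fit, and Sec24c ran from -0.22 to -0.13. For Oxali against Cispl the count fell from 22 to 10 and 13 without Oxali replicate 1 or 2, and to 14 and 11 without Cispl replicate 1 or 2. The 9 calls between the drugs that were kept in all of these fits were those of Sec61a1, Ssr2, Ssr3, Srpr, Sec23a, Surf4, Kdelr1, Kdelr2 and Kdelr3. Calls of Sec23b, Sec24d, Sec31a and Sec22b were lost in some fits, while their log2 differences stayed at 0.24 to 0.33, -0.21 to -0.17, -0.20 to -0.14 and -0.30 to -0.24. The calls of Spcs1 and Sec13 between the drugs were lost in all 6 fits, with log2 differences of -0.23 to -0.11 and -0.18 to -0.11. Spcs1 moved from -0.17 to -0.11 without Cispl replicate 1.

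Sec61g, a small channel subunit, had normalised counts of 25.9 and 126 in control, 111 and 46.1 in Oxali and 80.4 and 69.6 in Cispl libraries, with fractions of reads shared among genes, and no change can be read from it. In 14 of the 40 genes an exon overlaps another gene, 1 of them (Sec11a) on the same strand, and whether counting used strand is not given in the sources used here.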

How the data were processed

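Poly(A) RNA-seq of TRAMP-C2 cells was grouped by the sample labels. The authors deposited expected counts per gene, not scaled between libraries. Their processing notes name STAR 2.5.3a, RSEM 1.3.0 and GRCm38.p6, whereas the study's methods describe another STAR version, featureCounts and GENCODE vM12. Which annotation this table used was not tested. RSEM divides reads shared among genes: 16 of the 40 genes had non-whole counts, which were rounded.

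Identifiers were matched to GENCODE M21 (54409 of 54446). A DESeq2 1.42.0 model (R 4.3.3) with a group term covered the 6 libraries and the genes that had 10 or more counts in 2 or more of them, with size factors of 0.964 to 1.08, two-sided Wald tests, unshrunken log2 fold changes, a threshold of 0.05 and independent filtering at 0.1. Benjamini-Hochberg adjustment ran in each contrast over the genes that this filtering kept, and 2900, 1740 and 2900 of the tested genes (Oxali, Cispl, Oxali against Cispl) had no adjusted p. Intervals are log2 fold change ± normal 95% limits. TPM was approximated from the longest M21 transcript. At these depths 3 counts correspond to 0.125 to 0.141 CPM. DESeq2 and edgeR 4.0.16 were tested on simulated data, where changed genes with low counts were often missed and edgeR made more false calls than DESeq2.

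All 40 genes are named, those called in at least 1 comparison with their library values. From each further list at most the 2 called genes with the smallest adjusted p in each drug comparison qualified, and not all that qualified are named. The genes of the ER chaperone and unfolded protein response list that rose are named in addition. Members and lists were chosen with earlier results of these data known. An epithelial marker is not reported here. Alternatives were edgeR, other scaling and filters, a replicate block, fewer libraries and removal of length and GC trends.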

Additional observations from a re-analysis of the deposited data

How the results depend on the processing

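Counts of called genes among the 40 (24 after Oxali, 13 after Cispl and 22 between the drugs) moved by less than 1.5 times under edgeR's quasi-likelihood test (25, 16 and 24), TMM and total-count scaling, other low-count filters, no independent filtering, only the 4 libraries compared, and removal of length and GC trends. The latter gave 5 higher genes after Cispl in place of 2, and 2754 in place of 2355 over all tested genes. Requiring a log2 fold change of at least 1 left 0, 0 and 0. Leaving out 1 library gave 17 to 22, 8 to 11 and 10 to 21. Such fits assume that the lone library of a group varies like the other groups. With a replicate block the counts were 22, 11 and 16. Deviations from group means correlated at 0.07, -0.05 and -0.19 between same-numbered libraries over 10742 genes, so that the numbers were not taken to pair samples.

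Of called values, that of Ssr1 after Cispl turned to 0.0602 with length and GC trends removed. Values that were not called changed sign more readily. Kdelr2 after Cispl became -0.0394 with total-count scaling and -0.0289 with those trends removed, and ran from -0.0151 (without Cispl replicate 1) to 0.0309 (without Cispl replicate 2) as libraries were left out, also below 0 without control replicate 2 (-0.00533). Mcfd2 after Cispl became -0.0157 with total-count scaling and -0.00231 with those trends removed, and Sec16a between the drugs -0.00345 with the latter. The causes were not tested. With 2 libraries a group, the spread is estimated largely across genes, and the calls of Sec13 and Spcs1 were close to the threshold. Ssr3 had a log2 fold change of similar size after Oxali (-0.18) at more counts, and was called with an adjusted p of 1.87e-05 (DESeq2).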
